A study of Mus musculus with 16 samples.

Results

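The 10 genes described here are expressed by absorptive colonocytes, the epithelial cells that line the colon surface and take up salt, water and fatty acids: Slc26a3, Car1, Car4, Aqp4, Aqp8, Fabp2, Hao2, Guca2a, Krt20 and Vil1. They were chosen as known genes of that cell type, with earlier results of these data known. Every probe set naming only one of them was used, which gave 14 probe sets for 10 of the 17097 genes measured. They were read in cells sorted as fibroblasts (Epcam-CD45-CD31-GP38+) from the colons of 4 C57BL/6 mice carrying Gli1CreERT2-ZsGreen, in which tamoxifen switches on the green reporter through a Cre placed under Gli1, a gene of Hedgehog-responsive fibroblasts. All mice received 1 mg tamoxifen on each of 5 days, and cells were isolated on day 6. Sca1+ cells with a bright reporter (Sca1+Gli1ZsGreenhigh) are called reporter-high here and those with a weak one (Sca1+Gli1ZsGreendim) reporter-dim. Cells without reporter are called Sca1+ negative (Sca1+Gli1ZsGreen-) and Sca1- negative (Sca1-Gli1ZsGreen-). The labels assign 1 Affymetrix array of each of the 4 populations to every mouse, 16 arrays in all, though the arrays labelled mouse 2 did not match one another in their sex-linked genes. No mouse without tamoxifen and no unsorted colon is part of the comparison.

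Colonocytes mature as they move up the crypt and at the surface become polarized absorptive cells with a brush border of microvilli. There they exchange luminal chloride for bicarbonate, which carbonic anhydrases supply, move water through aquaporins and burn fatty acids. Colonocytes carry the surface protein Epcam, which the sort was set to leave out. The samples are bulk RNA of sorted cells, in which fewer cells of a type and less RNA per cell cannot be told apart.

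All 10 genes were lower in reporter-high cells than in both reporter-negative populations. In reporter-high against Sca1+ negative cells the differences ran from -3.37 for Hao2 to -1.63 for Car1 on the log2 scale, with a median of -2.11 against 0 for all genes. The limma test, adjusted by Benjamini-Hochberg over 17097 genes, called 10 of 10 lower, and each was lower in 4 of 4 mice. Over all genes 13.9% were called lower and 17% higher in this comparison. As the members were chosen with earlier results of these data known, setting their count beside these shares is no independent test. Signal here is the array signal of a gene's brightest probe set, and it is not comparable between genes. No such signal of a member fell to the highest nonspecific control of its array, which lay between 234 and 488.

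A few facts about the arrays bear on these values. Array medians lay between 662 and 687. The ratio of 3' to 5' signal of Actb, a measure of RNA quality, was 1.24 in reporter-high cells, 1.15 in reporter-dim cells and 1.11 in each reporter-negative population, and its part in the results was not tested. In mouse 2 the reporter-high and reporter-dim arrays read the Y-linked Eif2s3y and the other 2 read Xist, so arrays labelled as 1 animal did not match, and the labels alone stand behind counts of mice and blocked fits. Reporter-high and reporter-dim cells thus had more arrays reading Eif2s3y than either reporter-negative population, so comparisons with those were unbalanced for sex-linked genes. The number of arrays limits the precision.

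**Figure D1:**
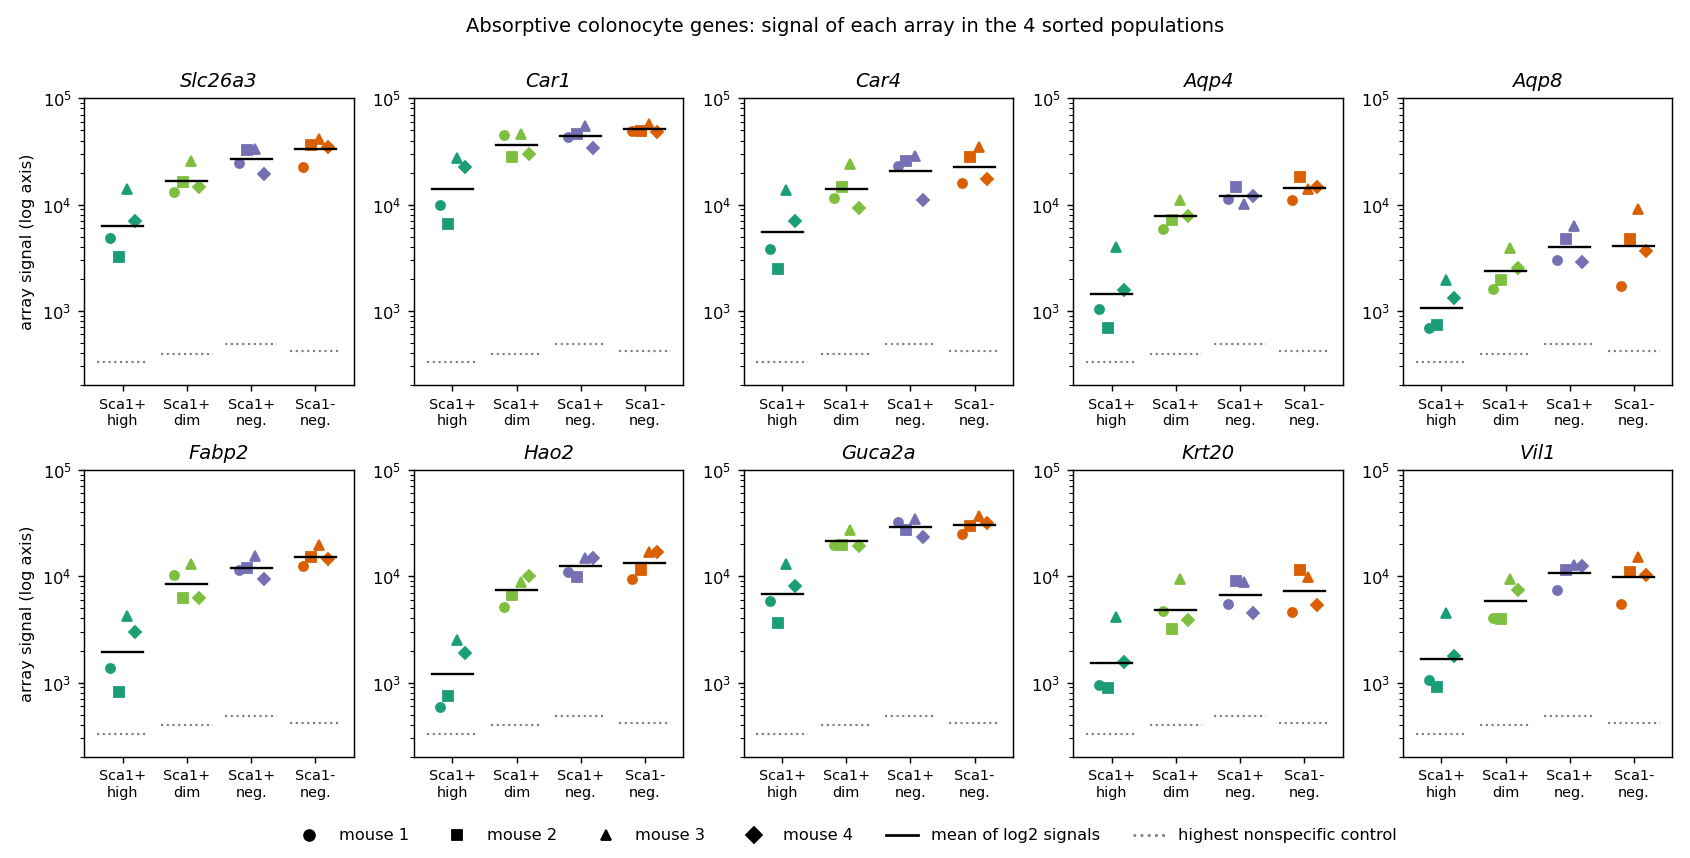
Array signal (vertical log axis) of each of the 10 genes in reporter-high, reporter-dim, Sca1+ negative and Sca1- negative cells; a point is the array of 1 mouse, a bar the mean of 4 log2 signals, and the dotted line the highest nonspecific control among the arrays of that population. The mean of the reporter-high arrays is the lowest in every panel, and among those arrays that of mouse 3 is the highest for 10 of 10 genes.

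The promoters of the members that differed most between reporter-high and Sca1+ negative cells, Aqp4 left out, are printed to show the sequence just upstream of genes that moved together. They are RefSeq windows of 300 bases on GRCm38.p6, from 250 bases before to 50 after the start, with capitals at the motifs searched.
Hao2, chr3:98893181-98893480 (- strand): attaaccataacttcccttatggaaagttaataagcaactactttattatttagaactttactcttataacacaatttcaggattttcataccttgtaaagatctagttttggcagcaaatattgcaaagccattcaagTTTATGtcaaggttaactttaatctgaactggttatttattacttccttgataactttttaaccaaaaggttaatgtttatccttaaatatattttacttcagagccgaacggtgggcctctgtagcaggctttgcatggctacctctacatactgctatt
Vil1, chr1:74409134-74409433 (+ strand): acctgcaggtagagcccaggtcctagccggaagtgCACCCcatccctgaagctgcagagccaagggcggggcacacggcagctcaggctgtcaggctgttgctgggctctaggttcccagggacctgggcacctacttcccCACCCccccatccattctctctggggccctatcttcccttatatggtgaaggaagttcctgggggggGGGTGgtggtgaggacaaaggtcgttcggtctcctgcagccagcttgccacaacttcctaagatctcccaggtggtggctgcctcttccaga
Fabp2, chr3:122894822-122895121 (+ strand): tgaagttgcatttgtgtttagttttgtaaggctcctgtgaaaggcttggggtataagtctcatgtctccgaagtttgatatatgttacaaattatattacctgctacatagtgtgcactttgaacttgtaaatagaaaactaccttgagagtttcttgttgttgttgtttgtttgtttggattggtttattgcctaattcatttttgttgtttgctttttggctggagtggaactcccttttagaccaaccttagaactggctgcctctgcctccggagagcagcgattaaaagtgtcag
Krt20, chr11:99438104-99438403 (- strand): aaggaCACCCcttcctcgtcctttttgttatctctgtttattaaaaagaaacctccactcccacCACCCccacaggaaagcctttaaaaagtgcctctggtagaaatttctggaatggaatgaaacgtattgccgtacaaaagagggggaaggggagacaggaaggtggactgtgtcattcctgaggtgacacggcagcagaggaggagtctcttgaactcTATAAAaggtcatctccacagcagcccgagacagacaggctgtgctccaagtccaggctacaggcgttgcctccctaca
The motifs were TATAAA (the TATA box), then CATAAA (a core bound by CDX factors), CAAAGTCCA (a site of the HNF4 type) and CACCC (a core bound by KLF factors), on both strands. In capitals, TTTATG is the CDX core on the other strand, and GGGTG the KLF core there. The 4 motifs do not overlap one another in the printed windows. In Krt20, TATAAA began at position -29 counted from the start, and in Hao2 the CATAAA match at -111. Windows of 8 members were searched. TATAAA was in 3 of 8, against 13.6% of 32851 windows, CATAAA in 1 of 8 against 11.9%, CAAAGTCCA in 0 of 8 against 0.475%, and CACCC in 5 of 8 against 57.5%. A match describes these letters only.

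The genes of chloride, bicarbonate and water transport come first. Slc26a3 encodes the apical exchanger that takes up chloride for bicarbonate. It read 4800, 3232, 14141 and 7064 in the reporter-high arrays of mice 1 to 4 and 13117, 16144, 25630 and 14583 in the reporter-dim arrays. It read 24558, 32370, 33100 and 19280 in Sca1+ negative and 22623, 36602, 41029 and 34738 in Sca1- negative arrays. Every reporter-high array was below every reporter-negative one, while the reporter-high array of mouse 3 lay above the reporter-dim array of mouse 1. The gene was 4.25-fold lower in reporter-high than in Sca1+ negative cells (log2 -2.09 ± 0.36 SE, adjusted p = 0.000737). Its second, dimmer probe set differed by -2.79 ± 0.50.

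Car1, the cytosolic carbonic anhydrase of colonocytes, had the smallest difference among the members. It read 9799, 6557, 27660 and 22454 in reporter-high and 44675, 27941, 46322 and 30070 in reporter-dim arrays. It read 42776, 45596, 55320 and 34184 in Sca1+ negative and 49234, 48916, 57783 and 48078 in Sca1- negative arrays. The reporter-high arrays stayed below all others, with that of mouse 3 just under the lowest reporter-dim array. The difference between reporter-high and Sca1+ negative cells was -1.63 ± 0.35 (adjusted p = 0.00277, limma), or 3.1-fold lower.

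Car4, a carbonic anhydrase anchored to the cell surface, was the 1 member whose reporter-high and Sca1+ negative arrays overlapped. It read 3817, 2482, 13811 and 6988 in reporter-high arrays, against 23243, 25939, 28292 and 11085 in Sca1+ negative arrays. The reporter-high array of mouse 3 thus lay above the Sca1+ negative array of mouse 4, though within each mouse the reporter-high array was the lower. The difference was -1.92 ± 0.47 (adjusted p = 0.00601), and the second probe set gave -2.19 ± 0.54. Without mouse 2 the calls of Car4, Aqp8 and Krt20 in this comparison were lost, leaving 7 of 10, while the share of all genes called lower was 7.89%.

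Aqp4, a water channel of the basolateral membrane, differed more. It read 1030, 688, 4008 and 1566 in reporter-high and 5900, 7155, 10959 and 7720 in reporter-dim arrays. It read 11230, 14730, 10167 and 12045 in Sca1+ negative and 11019, 18196, 13988 and 14713 in Sca1- negative arrays. The reporter-high arrays were apart from all others, and the reporter-dim and Sca1+ negative arrays overlapped through mouse 3. The difference in reporter-high against Sca1+ negative cells was -3.04 ± 0.39, 8.22-fold (adjusted p = 0.000179). The other 2 probe sets of Aqp4 gave -1.89 ± 0.22 and -1.72 ± 0.29. They were dimmer, and the dimmest lay at or below the highest nonspecific control in 3 of 4 reporter-high arrays, so its size may be understated.

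Aqp8, the aquaporin of the surface epithelium, was lower in reporter-high cells too. It read 693, 743, 1950 and 1326 in reporter-high arrays, against 2998, 4735, 6345 and 2880 in Sca1+ negative arrays. In Sca1- negative cells it spread from 1711 to 9041, and the lowest of these lay below the reporter-high array of mouse 3. It was 3.74-fold lower in reporter-high than in Sca1+ negative cells (-1.90 ± 0.46, adjusted p = 0.00578).

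The genes of the peroxisome and of fatty acid handling come next. Hao2 encodes a peroxisomal oxidase of hydroxy acids. It read 591, 752, 2517 and 1891 in reporter-high and 5120, 6591, 8794 and 9998 in reporter-dim arrays. It read 11033, 9914, 14948 and 14864 in Sca1+ negative and 9328, 11444, 16807 and 16782 in Sca1- negative arrays. Each reporter-high array was below each array of the other 3 populations. The difference of -3.37 ± 0.39 in reporter-high against Sca1+ negative cells, 10.4-fold lower, was the largest among the members (adjusted p = 0.000132).

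Fabp2, the intestinal fatty acid binding protein that carries fatty acids through the cytosol, read 1362, 816, 4179 and 2973 in reporter-high arrays and 10208, 6201, 12989 and 6252 in reporter-dim arrays. It read 11493, 11919, 15398 and 9425 in Sca1+ negative and 12391, 15114, 19767 and 14398 in Sca1- negative arrays. Again no reporter-high array reached any other array. It was 6.16-fold lower in reporter-high than in Sca1+ negative cells (-2.62 ± 0.40, adjusted p = 0.000386).

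Guca2a encodes guanylin, the hormone that epithelial cells release to act on guanylate cyclase C and so on salt and water transport. It read 5855, 3604, 13015 and 8053 in reporter-high and 19659, 19573, 27355 and 19231 in reporter-dim arrays. It read 32584, 27440, 34628 and 23309 in Sca1+ negative and 24853, 29560, 37086 and 31323 in Sca1- negative arrays. The reporter-high arrays lay below all others. The difference against Sca1+ negative cells, -2.09 ± 0.28 (adjusted p = 0.000236), had the smallest SE among the members.

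Vil1 encodes villin, which bundles actin in microvilli, and Krt20 a keratin of mature surface cells. Vil1 read 1045, 913, 4504 and 1791 in reporter-high and 4064, 3993, 9315 and 7467 in reporter-dim arrays, so that mouse 3 made these 2 populations overlap. It read 7390, 11459, 12645 and 12344 in Sca1+ negative and 5497, 10870, 15111 and 10173 in Sca1- negative arrays. The reporter-high arrays were below all 8 of these, and the difference against Sca1+ negative cells was -2.69 ± 0.45, 6.44-fold (adjusted p = 0.000595). Krt20 ranged from 879 to 4091 in reporter-high and from 4464 to 8922 in Sca1+ negative arrays, with a difference of -2.13 ± 0.47 (adjusted p = 0.00325).

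In total 9 of 10 members had all reporter-high arrays below all Sca1+ negative arrays, as did 14.9% of all genes. All 14 probe sets were called lower when the 45037 probe sets that are no controls were tested, of which 11% were called lower. A moderated F test over the 4 populations called 10 of 10 members, against 32.3% of genes. Against Sca1- negative cells the reporter-high cells gave differences from -3.45 for Hao2 to -1.85 for Car1, with 10 of 10 called lower against 16.7% of genes. There 9 of 10 members, all but Aqp8, had every reporter-high array below every Sca1- negative one, as did 15% of all genes. Without mouse 2 the calls of Aqp8 and Car4 were lost, leaving 8 against 10.4% of genes. Scaled to the hybridization controls, the median of all genes in reporter-high against Sca1+ negative cells moved to 0.38, with 10925 of 11815 called genes higher, against 2900 of 5276 unscaled. The 10 members were called lower under that scaling too.

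Reporter-dim cells lay between. Their mean signals of the members were all below those of Sca1+ negative cells, by 0.27 for Car1 to 0.89 for Vil1 on the log2 scale, and above those of reporter-high cells. Against Sca1+ negative cells 0 of 10 were called lower by limma and 0 had an unadjusted p under 0.05, with adjusted p of 0.266 to 0.718, and 0.608% of genes were called lower. With mouse as a block Hao2 (adjusted p = 0.031), Vil1 (0.036) and Aqp8 (0.0447) were called, against 7.78% of genes. Against Sca1- negative cells the differences were -0.97 for Slc26a3 to -0.49 for Car1, with 0 called, 3 at an unadjusted p under 0.05 and 5.89% of genes called lower. For 2 of 10, Car1 and Aqp4, all reporter-dim arrays lay below all Sca1- negative arrays, as for 5.86% of genes. A dimmer probe set of Aqp4 was called lower there (-0.79 ± 0.22, adjusted p = 0.0328 in limma), the 1 called of 14, against 4.94% of 45037 probe sets. With the block Hao2, Slc26a3 and Aqp8 were called (adjusted p = 0.0123, 0.0191 and 0.0284), against 11.3% of genes. Leaving out mouse 3 called 2 members against Sca1- negative cells (4.13% of genes lower), leaving out only its reporter-high array also 2 (6.02%), and leaving out the Sca1- negative array of mouse 1 called 1 (12%).

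Between the 2 reporter-labelled populations 4 members passed the test. In reporter-high against reporter-dim cells Hao2 was at -2.61 (adjusted p = 0.014), Aqp4 at -2.41 (0.0163), Fabp2 at -2.14 (0.0228) and Guca2a at -1.63 (0.0195), while 0.93% of genes were called lower. The other 6 had values of -1.80 to -1.13 and adjusted p of 0.0607 to 0.22. All 10 were lower in 4 of 4 mice, and all had an unadjusted p under 0.05. With mouse as a block 10 were called, against 4.67% of genes. The arrays did not overlap for 5 members, the 4 called and Car1, against 4.46% of genes. The count of 4 rested on single arrays, and the calls over all genes changed with it. Without mouse 2 or mouse 4 limma called 0 members and 0 of 17097 genes, while 8 members without mouse 2 and 9 without mouse 4 had an unadjusted p under 0.05. Without mouse 3 it called 7 members, against 1.13% of genes lower. With the reporter-dim array of mouse 3 left out 0 members and 0 genes were called, with that of mouse 4 0 members and 2 genes, and with the reporter-high array of mouse 2 0 members and 10 genes, and 8 to 9 members had an unadjusted p under 0.05 in these fits. The count was 1 without the reporter-high array of mouse 1 (0.0292% of genes lower) and 7 without the Sca1- negative array of mouse 1 (2.78%). It was 9 once the mouse 3 reporter-high array was removed (2.21%).

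No difference between the reporter-negative populations was called for these genes. Sca1+ minus Sca1- negative differences were -0.36 for Fabp2 to 0.13 for Vil1, with adjusted p of 0.861 to 0.997 in limma. None of the 10 was called or had an unadjusted p under 0.05, while 1.23% of genes were called lower. All Sca1+ negative arrays lay below all Sca1- negative arrays for 0 of 10 members and for 2.76% of genes, so a count of 0 is near the background. The SEs of these differences were 0.28 to 0.47.

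**Figure D2:**
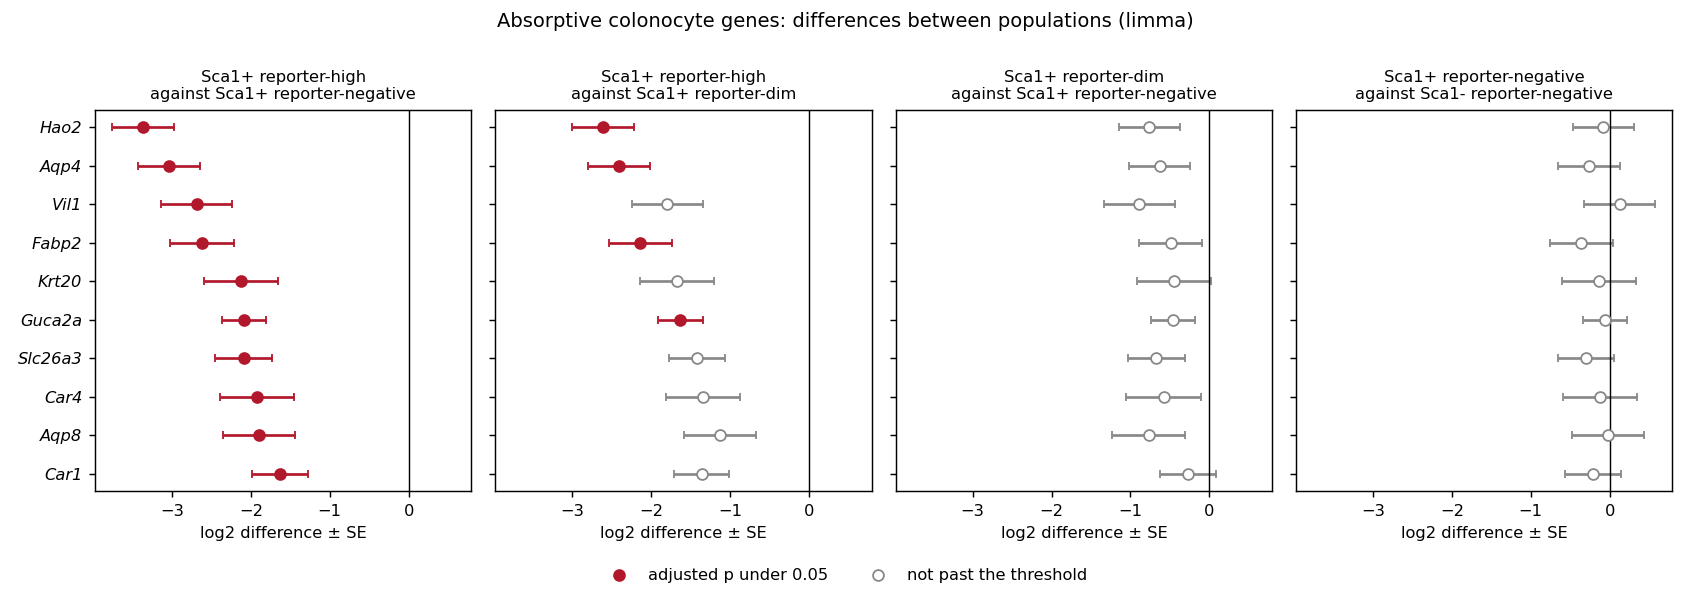
Log2 difference ± SE of each of the 10 genes in 4 comparisons, from limma on 4 arrays per population; filled red points have an adjusted p under 0.05. All 10 are called in reporter-high against Sca1+ negative cells, 4 against reporter-dim cells, and 0 in the other 2 panels.

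The members moved together over the 16 arrays. Pairwise Pearson correlations of their log2 signals ran from 0.84 to 0.99 over 45 pairs, with a median of 0.94. The points share the 4 populations and the 4 mice. Among the reporter-high arrays, that of mouse 3 was the highest for 10 of 10 members, and that of mouse 2 the lowest for 8 and of mouse 1 for 2. The genes outside the list whose signals were most like the mean of the members over these arrays were Stap2 and AA467197 (both r = 0.993), Sectm1b and Cdhr2 (both 0.989) and Akr1c12 (0.988).

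General epithelial genes, shared by all epithelial cells of the colon, moved with the members. The 19 genes of this list, among them Epcam, E-cadherin (Cdh1) and keratins, averaged 10.90 ± 0.66 log2 signal (SD, n = 4) in reporter-high cells, 12.27 ± 0.44 in reporter-dim cells, 12.99 ± 0.29 in Sca1+ negative and 12.94 ± 0.44 in Sca1- negative cells. In reporter-high against Sca1+ negative cells 19 of 19 fell, with a median of -2.10, Krt18 at -2.82 ± 0.48 and Cdh1 at -2.77 ± 0.43. Epcam itself read 3472 ± 2370 in reporter-high cells, 10281 ± 3827 in reporter-dim cells, 17884 ± 3522 in Sca1+ negative and 17339 ± 5049 in Sca1- negative cells. Gli1 read 2611 ± 321, 2323 ± 322, 1104 ± 299 and 920 ± 318 in the same order. The sorted cells thus carried Epcam signal in spite of the gate. The fibroblast list averaged 14.22, 14.11, 13.59 and 13.15 log2 signal in that order, and the members averaged 11.46, 13.21, 13.8 and 13.94. The members' mean was thus below that of the fibroblast list in both reporter-labelled populations and above it in both reporter-negative ones. Signals are not comparable between genes, so these levels do not give the share of either cell type.

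To test whether a member differed by another amount than the mean of the general epithelial genes, the mean log2 signal of those 19 genes was subtracted from each array and the limma fit repeated. On that relative scale 6 of the 10 had values of -0.04 to 0.46 in reporter-high minus Sca1+ negative cells, and 2 were called lower, against 0.316% of genes. The subtraction itself keeps the shares called lower in reporter-high cells small on this scale. They are thus no background for epithelial genes. The p-values measure the spread between arrays, not that among epithelial genes. The unsubtracted differences of the 19 genes ran from -2.82 to -0.46 in this comparison. A call therefore does not set a member apart from single epithelial genes. Hao2 was at -1.28 ± 0.34 (adjusted p = 0.000386). Its relative values averaged -0.67 ± 0.47 (SD, n = 4) in reporter-high cells, 0.58 ± 0.16 in reporter-dim cells, 0.61 ± 0.28 in Sca1+ negative and 0.74 ± 0.23 in Sca1- negative cells. The highest reporter-high array, at -0.14, was below the lowest of the other 12, at 0.22. The exact permutation test over arrays, two-sided, gave p = 0.0286 for Hao2, the smallest that 4 arrays against 4 allow.

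Aqp4 was called as well, at -0.95 ± 0.34 (adjusted p = 0.00785), though its arrays overlapped through mouse 3 and the exact permutation p was 0.0571. Its relative values averaged -0.40 ± 0.45 (SD) in reporter-high cells, 0.65 ± 0.22 in reporter-dim cells, 0.55 ± 0.37 in Sca1+ negative and 0.85 ± 0.32 in Sca1- negative cells. Vil1 at -0.60 ± 0.33 (adjusted p = 0.0804), Fabp2 at -0.53 ± 0.35 (0.142) and Car1 at 0.46 ± 0.35 (0.204) did not pass. Against reporter-dim cells Hao2 (-1.25), Aqp4 (-1.05) and Fabp2 (-0.77, adjusted p = 0.0342) were called lower, against 0.117% of genes, and against Sca1- negative cells the same 3, at -1.41, -1.25 and -0.94, against 0.339%. The call of Fabp2 against reporter-dim cells was weak: its arrays overlapped and it was lower in 3 of 4 mice. Its exact permutation p there was 0.114, and the call held in 4 of 7 alternatives. In reporter-dim against Sca1+ negative cells 0 of 10 were called, against 2.23% of genes in either direction. With mouse as a block 5 members were called in either direction in reporter-high against Sca1+ negative cells, against 98.1% of genes. These were Hao2, Aqp4, Vil1 (adjusted p = 0.0066) and Fabp2 (0.0196), called lower against 0.62% of genes, and Car1, called higher (0.0438) against 97.5%. In reporter-dim against Sca1+ negative cells the block called 1, Car1, as higher, against 88.7% of genes in either direction. The call of Hao2 held in 7 of 7 alternatives in each of the 3 comparisons of reporter-high cells, that of Aqp4 against Sca1+ negative cells in 4 of 7. Against Sca1+ negative cells 1 member was called lower without mouse 2 (0.152% of genes) and 1 without mouse 4 (0.111%), and against reporter-dim cells 1 without mouse 2 (0.0351%).

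Subtracting the epithelial level by construction raises, in reporter-high cells, every gene that did not fall with it, and 16597 of 17097 genes were called in reporter-high against Sca1+ negative cells on the relative scale. With so many genes called, the adjustment changed the limma p-values little, for Aqp4 from 0.00754 to 0.00785. The subtraction also takes no account of array background, which can make differences of dim signals too small. It used the brightest probe set of each gene. Unsubtracted, in reporter-high against Sca1+ negative cells, the dimmer Aqp4 probe sets differed by -1.89 and -1.72. The second probe sets of Slc26a3 and Car4 differed by -2.79 and -2.19, and the median of the 19 genes was -2.1. These dimmer probe sets were not tested on the relative scale, so the relative results hold for the brightest only.

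**Figure D3:**
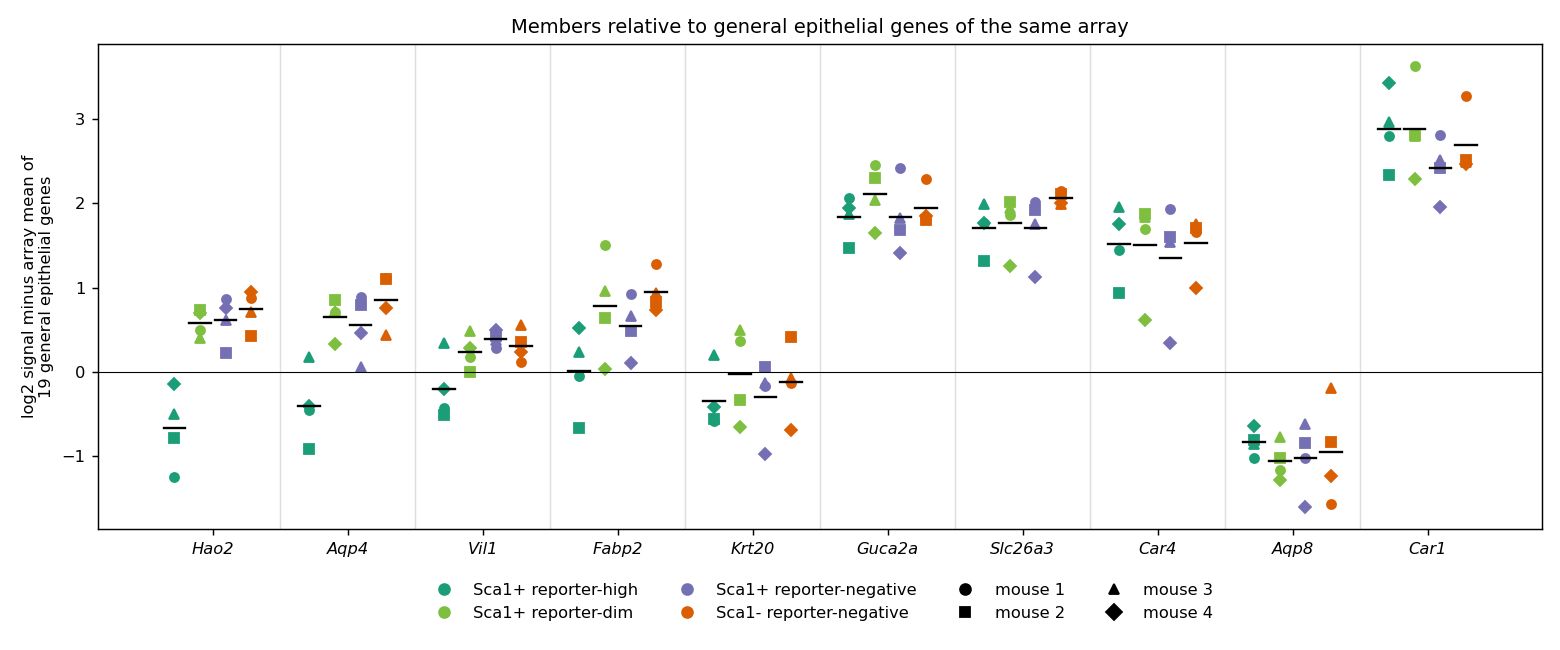
Log2 signal of each gene minus the mean log2 signal of 19 general epithelial genes of the same array (vertical axis), by population (colour) and mouse (marker), with the mean of 4 arrays as a bar. Hao2 has its 4 reporter-high arrays below all others; for Guca2a, Slc26a3, Car4, Aqp8 and Krt20 the reporter-high and Sca1+ negative arrays are mixed.

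Other genes of the members' pathways were counted from lists in the same comparison of reporter-high with Sca1+ negative cells. In these counts, fell and rose mean called lower and called higher. Over all genes 13.9% were called lower and 17% higher. Of 25 measured genes of colon ion and water transport 18 fell and 1 rose, with a median of -1.33, and the largest falls were Car2 at -2.72 ± 0.41, another cytosolic carbonic anhydrase, and Hsd11b2 at -2.43 ± 0.39, the enzyme that shields the mineralocorticoid receptor from glucocorticoids. Of 23 brush border genes 18 fell and 1 rose (median -1.70), with Ezr, the linker between actin and membrane, at -2.59 ± 0.45 and the microvillar motor Myo1a at -2.58 ± 0.40. Of 4 guanylin signalling genes 2 fell (median -0.77). These were the receptor Gucy2c at -1.93 ± 0.29 and the second ligand Guca2b, uroguanylin, at -0.92 ± 0.23.

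Of 25 genes of fatty acid uptake, oxidation and ketogenesis 14 fell and 0 rose, with a median of -0.49. The largest falls were in carriers of short-chain fatty acids and other monocarboxylates, Slc5a8 at -3.11 ± 0.36 and Slc16a1 at -2.24 ± 0.19. The peroxisomal list, to which Hao2 is related by its place in the cell, showed no common direction: 2 of 15 fell and 2 rose, with a median of -0.12. Both counts are near the shares over all genes. Ehhadh, an enzyme of peroxisomal beta-oxidation, was at -1.01 ± 0.25 and the racemase Amacr at 0.81 ± 0.18. Of 13 colonocyte transcription factors 10 fell and 0 rose (median -1.36), with Hnf4a at -2.69 ± 0.47 and Cdx1 at -2.50 ± 0.45. Of 36 further surface colonocyte genes 29 fell and 1 rose (median -1.71), with the claudins Cldn23 at -3.35 ± 0.47 and Cldn8 at -3.22 ± 0.43.

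Lists of other cell types are read against the 13.9% of all genes called lower and the 17% called higher in this comparison. Fell and rose again mean calls, so genes with smaller differences in either direction are not counted. Of 10 goblet cell genes 9 fell (median -2.29), with Clca1 at -3.09 ± 0.64 and Agr2 at -2.89 ± 0.45, and of 11 enteroendocrine genes 7 fell and 1 rose (median -0.71), with Insl5 at -2.27 ± 0.80 and Chgb at -1.86 ± 0.58. The crypt stem and transit amplifying list showed no common direction, with 3 of 12 genes lower and 3 higher (median -0.29). Smoc2 was at -1.5 ± 0.18 and Slc12a2, which the transport list also holds, at -1.12 ± 0.22. Of 8 tuft cell genes 1 rose, Dclk1 at 0.93 ± 0.22, and 0 fell (median -0.04), which is no more than the share over all genes. Of 12 endothelial genes 8 fell and 1 rose (median -0.70), with Pecam1 at -2.05 ± 0.32 and Cldn5 at -1.38 ± 0.46. Of 11 leukocyte genes 4 fell and 0 rose (median -0.16), with Jchain at -2.62 ± 0.57 and Lyz2 at -0.92 ± 0.28.

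The stromal lists went the other way, again counted by calls. Of 12 fibroblast genes 6 rose and 0 fell (median 0.61), with Gli1 at 1.27 ± 0.21 and Thy1 at 1.17 ± 0.22, and of 8 smooth muscle genes 7 rose and 0 fell (median 1.44), with Actg2 at 2.85 ± 0.44 and Myh11 at 1.64 ± 0.32. The part of any of these cell types, or of the 3' to 5' ratios, in the differences of the members was not tested.

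**Figure D4:**
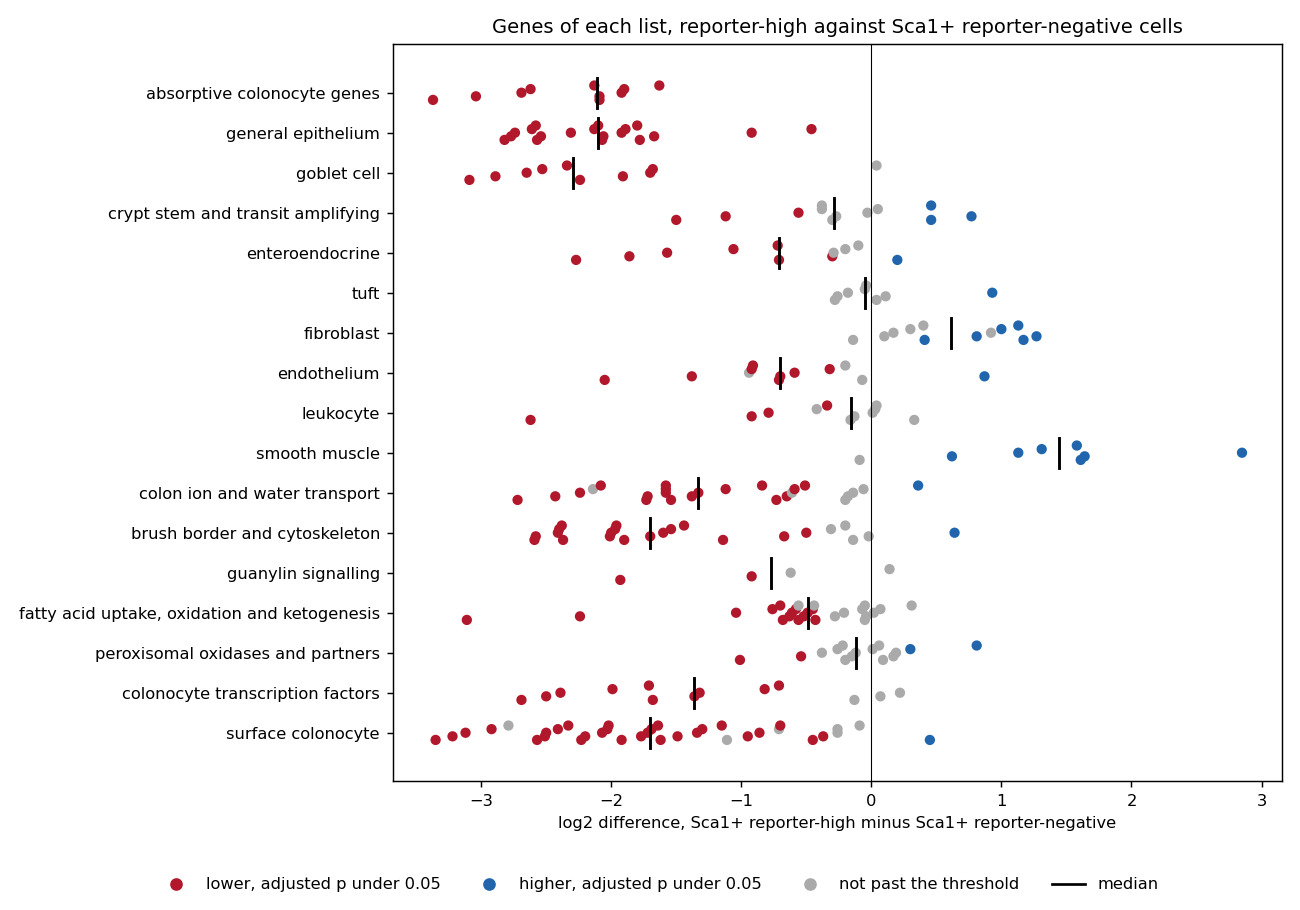
Log2 difference between reporter-high and Sca1+ negative cells (horizontal axis) of each gene of 17 lists, 1 point a gene and a bar for the list's median; red and blue points have an adjusted p under 0.05. The absorptive colonocyte, general epithelium and goblet cell lists have medians of -2.11, -2.10 and -2.29, and the smooth muscle list one of 1.44.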

How the data were processed

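Cells of 4 populations from 4 mice were sorted, and RNA (2 ng) was amplified and hybridized to 1 Affymetrix array a sample, per the labels' protocols. Affymetrix Expression Console 1.1 is named in the submitters' processing notes. How signals were summarized and normalized is not given in the sources used here. In the deposited table each value is a score: a probe set's 16 values have mean 0 and SD 1, as checked. The design had assumed values on a log2 scale. Signals were recovered as the whole numbers whose standardized logs give the deposited scores: 45141 of 45141 probe sets, within 1e-09, and 1000 of 1000 in simulated data.

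A platform table named 28898 probe sets with 1 gene, 551 with several and 15588 with none. Each of 17097 genes took its probe set with the highest mean log2 signal. limma 3.58.1 in R 4.3.3 (lmFit, eBayes) was fitted to log2 signals of 16 arrays, fitting the 4 population means without a block. P was two-sided and adjusted by Benjamini-Hochberg, and calls were made at 0.05. Deviations of arrays labelled as 1 mouse correlated at 0.519, -0.0795, 0.507 and 0.112 for mice 1 to 4 on average (-0.0893 between mice), so they did not go together in mouse 2, whose sex-linked genes did not match. The labels give the animal, so mouse was a block in an alternative. The members, lists and tests were chosen with earlier results of these data known. Named genes were all members, up to 2 genes a list with the largest called difference, the sort genes and the 5 genes most like the members. Other alternatives were normalization, background, filter, probe set rule, variance prior and arrays left out.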

Additional observations from a re-analysis of the deposited data

Results flagged for a closer look

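Car1 in the Sca1- negative array of mouse 3 stood apart from the other 3 arrays of its population, at a signal of 57783 against 48078 to 49234, a gap of 0.871 of the range of the log2 signals, above the critical value of Dixon's test for 4 samples. Guca2a in the reporter-dim array of mouse 3 did too, at 27355 against 19231 to 19659, a gap of 0.938 of the range of the log2 signals. These are 2 of 40 groups examined, and chance gives about 1 in 20.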

How the results depend on the processing

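In reporter-high against Sca1+ negative cells the count of members called lower was 10 under every alternative run except without mouse 2, with 7 to 10 when a mouse was left out and 10 when an array was. Against Sca1- negative cells it was 10 (8 to 10 without a mouse, lowest without mouse 2). In reporter-high against reporter-dim cells the 4 called (0.93% of genes lower) became 10 with mouse as a replicate block (4.67%). The count was 8 scaled to the hybridization controls (all-gene median 0.35, 9661 of 9929 called genes higher). It was 9 with the Xist pattern as a covariate, chosen after seeing the data, and 0 on the deposited scores. It ranged from 0 to 7 without a mouse and from 0 to 9 without an array. With mouse as a block reporter-dim cells had 3 called against each reporter-negative population, in place of 0. The shares of genes called lower were then 7.78% against Sca1+ negative and 11.3% against Sca1- negative cells. Against Sca1- negative cells the fit to those 2 populations alone called 2, and leaving out a mouse or an array 0 to 2. Relative to general epithelial genes, the 2 called against Sca1+ negative cells became 1 with the list's median subtracted and 1 to 3 without a mouse. With the block they became 5, against 98.1% of genes in either direction. The 3 called against reporter-dim cells became 1 to 3 and the 3 against Sca1- negative cells 2 to 3 without a mouse. In reporter-dim against Sca1+ negative cells the block called 1 in place of 0, against 88.7% of genes in either direction. The F test called 7 to 10 without a mouse. Where no share of all genes is given beside a count, a change in the members was not set apart from one over all genes. The block changed no other call count by over 1.5 times, and the cause of these changes was not tested. No setting reversed a called direction. Dim signals hold array background, which can make their differences too small, and this was not tested. In reporter-high against Sca1+ negative cells the second probe sets of Slc26a3 and Car4 differed more than the brightest, and the dimmer ones of Aqp4 less.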
